A study of Mus musculus with 40 samples.

Results

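The transcripts of 9 interferon-induced genes, Mx1, Ifih1, Oasl2, Ifit1, Ifit3, Irf7, Isg15, Bst2 and Rsad2, were followed in the ventral tegmental area of the adult mouse brain. They were taken by name from a table of 55471 genes, and 9 of the 9 were found in it and passed the filter on low counts. The ventral tegmental area is a midbrain region that holds dopamine neurons. RNA sequencing libraries were made from frozen punches of 2 inbred strains, given as C57/Bl6 (here C57) and DBA in the labels, in males and females. In repeated cross fostering (RCF), litters passed to another adoptive mother daily from postnatal day 1 to 4, and the other arm was the control (CTRL). The 8 groups were C57 control males, C57 RCF males, C57 control females, C57 RCF females and the same 4 groups of DBA, with 5 libraries each and 40 in all. All were adult, with no age beyond that in the labels, and no other allele or agent is named. The labels name neither the animal nor the litter behind a library, and p-values cover the spread among libraries, which may be partly technical.

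Cells recognise viral nucleic acids with sensors such as the protein of Ifih1 (MDA5, which binds long double-stranded RNA in the cytosol). The sensors switch on factors such as Irf7, which turn on interferon genes, and secreted type I interferon then acts through its receptor and factors that include the Stat2 and Irf9 proteins on a DNA element rich in GAAA repeats near induced genes. The induced proteins include Mx1 (a dynamin-like GTPase that blocks influenza virus), Oasl2 (of the oligoadenylate synthetase family), Ifit1 and Ifit3 (which act on foreign RNA), Isg15 (a ubiquitin-like modifier), Bst2 (tetherin, which holds budding virus particles at the cell surface) and Rsad2 (viperin, an enzyme that makes an antiviral nucleotide). In healthy brain these genes are expressed at a low tonic level, with microglia, endothelial cells and other cells all able to respond to interferon.

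Promoter stretches of 6 members are shown, of which 5 hold the repeated GAAA letters of the element named above. In RefSeq promoter windows of GRCm38.p6 (250 bases before to 50 after each gene's start, a reference made from C57), 8 of the 9 genes had an entry and Mx1 had none. The motif of GAAA, any 2 bases and GAAA again, searched on both strands with overlapping matches allowed, was in 6 of these 8 windows (75%) and in 3.44% of the 32851 windows of the table. Capitals mark motif matches in the stretch from 160 to 41 bases before the start, which for Ifit1 begins at base 145 so that it stays clear of an exon of a neighbouring gene. The stretches are chr4:156200859-156200978 for Isg15 (minus strand), chr19:34640744-34640848 for Ifit1 (plus strand), chr19:34583369-34583488 for Ifit3 (plus strand), chr8:71537513-71537632 for Bst2 (minus strand), chr12:26456493-26456612 for Rsad2 (minus strand) and chr2:62646296-62646415 for Ifih1 (minus strand), each printed 5′ to 3′ on the gene's own strand.
Isg15: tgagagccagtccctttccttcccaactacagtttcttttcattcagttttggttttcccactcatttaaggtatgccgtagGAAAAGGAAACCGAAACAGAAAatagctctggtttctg
Ifit1: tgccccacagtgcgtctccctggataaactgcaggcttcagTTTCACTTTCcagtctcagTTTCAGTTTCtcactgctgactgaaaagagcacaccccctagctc
Ifit3: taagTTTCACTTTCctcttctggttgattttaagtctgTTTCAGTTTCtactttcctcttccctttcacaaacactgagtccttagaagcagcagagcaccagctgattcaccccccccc
Bst2: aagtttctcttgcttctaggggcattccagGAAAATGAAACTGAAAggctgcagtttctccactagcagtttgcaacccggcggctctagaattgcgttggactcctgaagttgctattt
Rsad2: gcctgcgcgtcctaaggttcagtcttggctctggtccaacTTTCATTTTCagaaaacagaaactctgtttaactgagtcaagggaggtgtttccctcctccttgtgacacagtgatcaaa
Ifih1: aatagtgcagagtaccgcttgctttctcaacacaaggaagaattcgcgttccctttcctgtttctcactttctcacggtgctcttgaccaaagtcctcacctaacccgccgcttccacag
Isg15 held 3 overlapping matches, Bst2 held 2 that overlap, Ifit1 and Ifit3 each held 2 apart from each other, and Rsad2 held 1. Ifih1, shown for contrast, had no match in the printed stretch and 1 match 33 bases past its start, inside the transcript. Oasl2 and Irf7 had none in their windows. A match describes letters and does not show binding, and the DBA sequence was not used here.

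The genes lie on 8 chromosomes, with coordinates in GRCm38 from GENCODE M21. Ifit1 (chr19:34640871-34650009) and Ifit3 (chr19:34583531-34588731) share chromosome 19. Ifih1 is at chr2:62595798-62646255, Isg15 at chr4:156199424-156200818, Oasl2 at chr5:114896936-114912234 and Irf7 at chr7:141262706-141266481. Bst2 is at chr8:71534255-71537456, Rsad2 at chr12:26442746-26456452 and Mx1 at chr16:97447035-97462907. Irf7 overlaps exon bases of Phrf1 on the opposite strand, and Phrf1 had 55010 counts over the 40 libraries. The library kit keeps strand but the counting setting is not given in the sources used here, so Irf7 values are uncertain. Ifit3 shares 97.8% of 1700 nt with Ifit3b (4709 counts in all) and Mx1 shares 95.3% of 843 nt with Mx2, so reads could be split between these copies.

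Total counts were 16913124 to 28179071 per library. Tissue content varied within groups and between strains. Among the 5 C57 RCF females the dopamine neuron gene Th ran from 0.655 to 1248 CPM. The defining marker of the region was thus nearly absent in the lowest of these. Low Th was not confined to that group, and among the 5 DBA RCF males it ran from 12.6 to 53.2 CPM. The mean log2 CPM of the dopamine neuron markers had a median of 6.33 in C57 and 3.91 in DBA (20 libraries each). Its range was 2.13 to 8.68 in C57 and 2.48 to 9.07 in DBA. There were 5 libraries that stood apart. C57 control male 5 carried an estimated 24.3% of DBA-type RNA, against its label. C57 control male 1 and DBA control female 3 had Slc17a7, a forebrain neuron gene, at 1122 and 1226 CPM, C57 RCF female 4 had the hindbrain gene Hoxb5 at 30.6 CPM, and DBA control male 4 had the lowest depth and 22170 genes detected. Results for the 9 genes that rest on them are given with and without them, while values of marker lists are given with them.

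Transcripts of all 9 genes were scarce. CPM here is counts scaled by depth and TMM factors. Divided by exon length, Ifit3 was the most abundant member, at 3.70 ± 1.02 RPKM in C57 and 4.45 ± 2.07 in DBA (SD, n = 20 each). Bst2 followed at 2.79 ± 1.09 and 1.92 ± 1.03 RPKM, and Isg15 at 1.69 ± 0.626 and 1.19 ± 0.723. Mx1 was lowest, at 0.0569 ± 0.0502 RPKM in C57 and 0.0790 ± 0.161 in DBA, with at most 14 counts in any C57 library and 47 in any DBA library. Mx1 had 0 counts in 3 C57 and 5 DBA libraries.

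**Figure D1:**
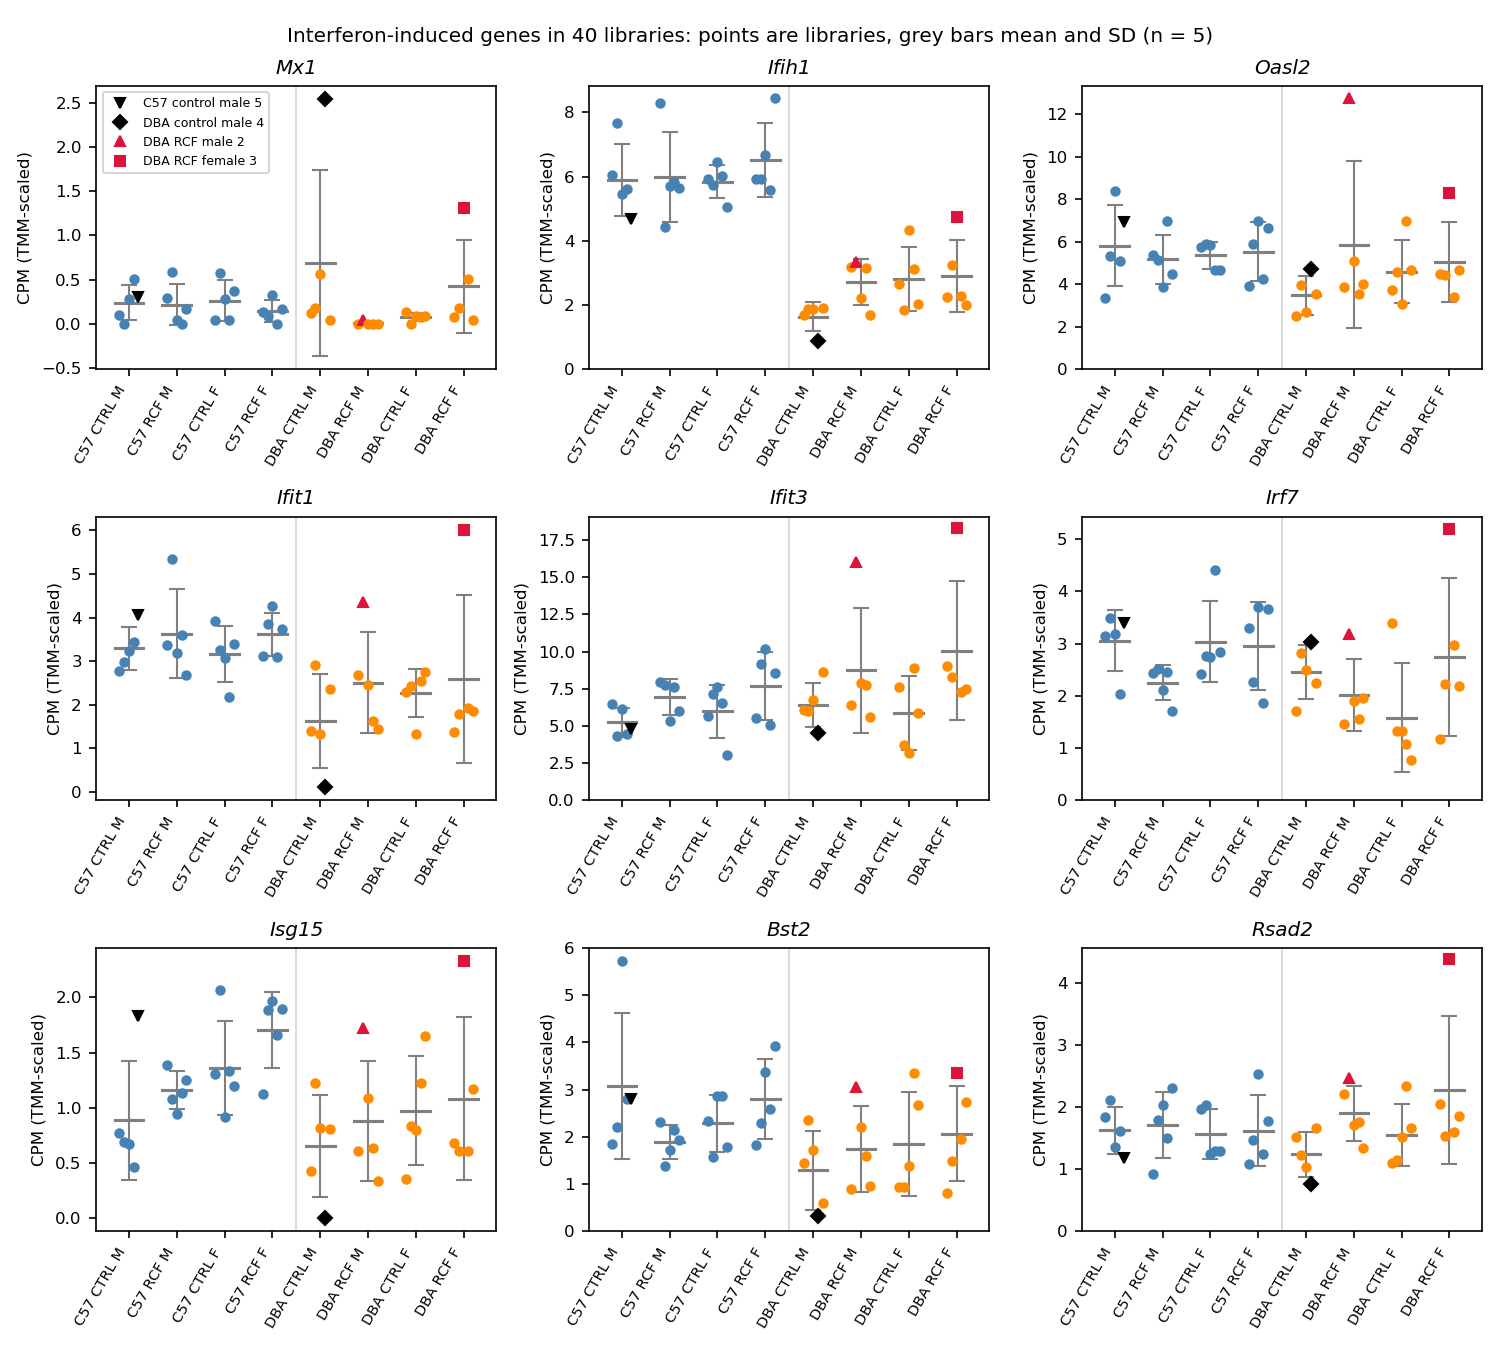
TMM-scaled CPM (y axis, linear, 1 panel a gene) of the 9 genes in the 8 groups (x axis), with C57 in blue and DBA in orange, each point a library and grey bars the mean and SD (n = 5). Ifih1 is the gene whose DBA points lie below the C57 points of the same sex and treatment in all 4 pairs of groups, and the red symbols mark DBA RCF male 2 and DBA RCF female 3, each the highest of its group for 9 of 9 genes.

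The first comparison asked how the strains differ. The build named for reads of both strains is GRCm38, made from C57. Whether DBA sequence variants changed the counts of any gene below was not tested. Ifih1, the sensor, was lower in DBA and was the 1 member of 9 past the threshold in controls, where 8.13% of the 18441 genes tested were lower in DBA and 16.0% passed in either direction. In C57 control males it stood at 6.06, 7.69, 5.45, 5.62 and 4.67 CPM (libraries 1 to 5), and in DBA control males at 1.68, 1.86, 1.89, 0.866 and 1.91. In C57 control females it stood at 5.94, 5.75, 6.46, 6.03 and 5.05 CPM, and in DBA control females at 2.65, 1.86, 4.35, 3.11 and 2.04. Every DBA control lay below every C57 control, and the lowest C57 control was the library with DBA-type RNA (4.67 CPM). Ifih1 averaged 2.22 CPM in DBA and 5.87 in C57 controls, or -1.45 on the log2 scale (SE 0.17, adjusted p = 2.47e-08 by the quasi-likelihood test of edgeR). Such separation of controls, lower in DBA, was found in 1.32% of genes tested.

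The same gene was lower in DBA among RCF libraries, where again 1 of 9 members passed, beside 12.4% of all genes tested lower in DBA and 23.8% in either direction. In C57 RCF males Ifih1 stood at 8.30, 4.44, 5.72, 5.82 and 5.64 CPM, and in DBA RCF males at 3.19, 3.34, 2.22, 3.14 and 1.68. In C57 RCF females it stood at 5.91, 5.94, 6.69, 5.59 and 8.45 CPM, and in DBA RCF females at 2.25, 3.23, 4.75, 2.27 and 2.01. The strains did not overlap within a sex, and DBA RCF female 3 (4.75) was above C57 RCF male 2 (4.44) when the sexes were put together. The log2 difference was -1.15 (SE 0.17, adjusted p = 1.66e-06), with means of 2.81 CPM in DBA and 6.25 in C57. Ifih1 thus separated the strains in each of the 4 pairs of groups matched for sex and treatment, as did 1.16% of all genes tested in that direction. In the order of group means, the 4 C57 groups (5.85 to 6.52 CPM) were followed by the 4 DBA groups (1.64 to 2.90 CPM), and the step from C57 control females to DBA RCF females was the one place where neighbouring groups did not overlap.

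Without the 5 libraries that stood apart, the Ifih1 difference was -1.52 in controls (adjusted p = 1.56e-08) and -1.18 in RCF libraries (adjusted p = 2.03e-07). Markers of microglia, the resident immune cells of brain, and of endothelium were also lower in DBA. Of 16 microglia markers, 7 were lower in controls and 12 in RCF libraries, and of 14 endothelial markers 10 and 7, with none higher. Of 5 erythroid markers 5 were lower in each comparison, of 8 pericyte and smooth muscle markers 3 in each, of 8 meningeal markers 4 in controls and 1 in RCF libraries, and of 5 choroid plexus and ependyma markers 3 and 1. Of 8 astrocyte markers 3 were lower in controls, with 1 higher, and 4 in RCF libraries. In RCF libraries 4 of 8 oligodendrocyte and 3 of 10 dopamine neuron markers were lower (median log2 fold change -0.55 and -2.52), and in controls none of either passed (median -0.36 and -0.57). The part of these lists other than microglia and endothelium in the result was not tested. The summed microglia level ran from 320.7 to 556.5 CPM in C57 and from 242.3 to 376.7 in DBA, and none of the 16 was at 0 throughout a strain. With both marker means as covariates, Ifih1 differed by -1.26 in controls (adjusted p = 0.000304) and by -0.93 in RCF libraries (adjusted p = 0.0383). In bulk tissue, fewer cells of a type and less RNA per cell cannot be told apart.

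The other 8 members did not pass in either strain comparison, and their groups overlapped in each; among RCF libraries, 2.13% of all genes tested were separated and lower in DBA. In controls, 8 of 9 estimates were below 0 (median log2 fold change -0.48, against 0.01 over all genes tested) and 5 of 9 had an unadjusted p under 0.05, as did 28.6% of all genes. The factor Irf7 came nearest, with 2.02 CPM in DBA and 3.05 in C57 controls, a difference of -0.63 (SE 0.22, adjusted p = 0.0502). Irf7 passed without C57 control male 4 (adjusted p = 0.0384), C57 control female 1 (0.0469), DBA control male 4 (0.0439) or DBA control female 1 (0.00241). Ifit1 passed without DBA control male 2 (adjusted p = 0.0241) or 5 (0.0447), and Bst2 without C57 control male 1 (0.0489), DBA control male 2 (0.0288) or DBA control female 4 (0.0300).

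Ifit1 averaged 1.95 CPM in DBA and 3.23 in C57 controls, a difference of -0.74 (SE 0.28, adjusted p = 0.0624). DBA control male 4 held 2 counts of Ifit1 (0.108 CPM), while the other 19 control libraries were between 1.33 and 4.06 CPM. Bst2 averaged 1.57 and 2.68 CPM, a difference of -0.77 (SE 0.30, adjusted p = 0.0724) that was 0.05 with the microglia and endothelial covariates. Oasl2 differed by -0.48 (SE 0.21, adjusted p = 0.111). voom called Ifit1, Irf7 and Bst2 beside Ifih1 (adjusted p = 0.0175, 0.0186 and 0.0323), and DESeq2 called Ifit1 and Irf7 beside it (adjusted p = 0.0362 and 0.0391). Setting aside fits that dropped a single library, the adjusted p of Ifit1 ran up to 0.580, that of Irf7 to 0.328 and that of Bst2 to 0.966.

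The remaining control estimates were small against their errors. Ifit3 differed by 0.13 (95% interval -0.29 to 0.55), Rsad2 by -0.19 (-0.62 to 0.23), Isg15 by -0.45 (-1.16 to 0.26) and Mx1 by -0.11 (SE 0.60). In RCF libraries 6 of 9 estimates were below 0 (median -0.28, against -0.01 over all genes), and Ifit3, Oasl2 and Rsad2 were the members above 0, at 0.36, 0.03 and 0.32. Mx1 there had a fitted difference of -1.25 (-3.01 to 0.51) although its mean was 0.215 CPM in DBA and 0.180 in C57. Ifit1 among RCF libraries differed by -0.51 (adjusted p = 0.183), and by -0.80 (adjusted p = 0.0211) without DBA RCF female 3, the library highest in that gene.

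**Figure D2:**
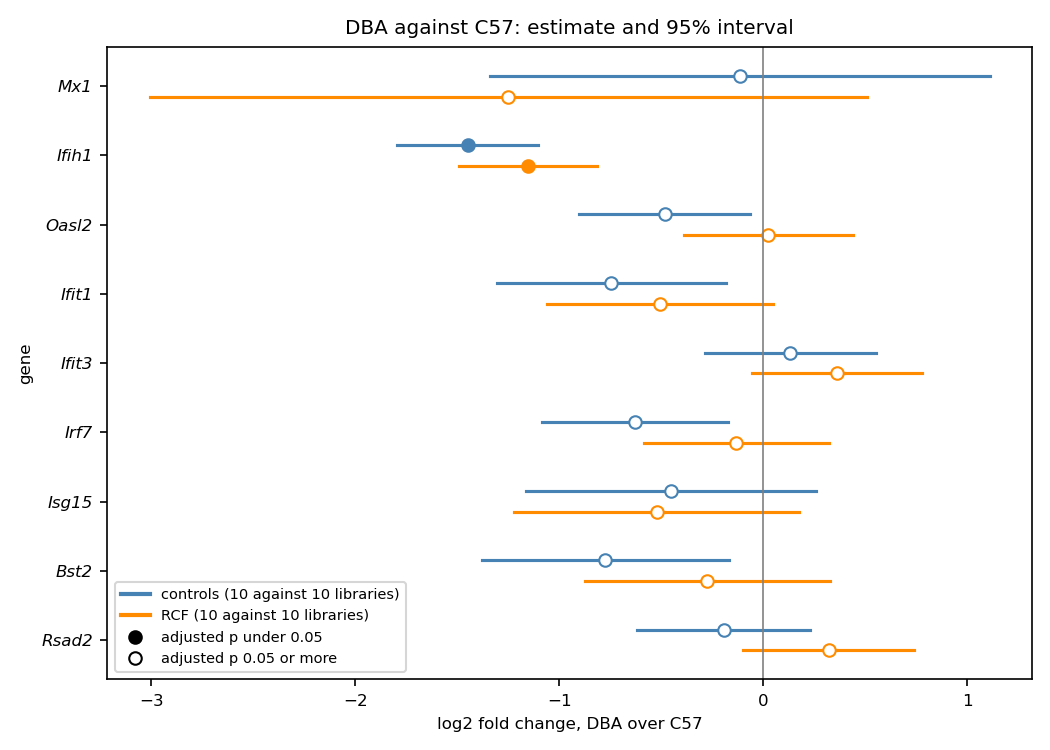
Log2 fold change of DBA over C57 (x axis) for the 9 genes (y axis) in controls (blue) and RCF libraries (orange), 10 against 10 libraries each, with 95% intervals as lines and filled points where the adjusted p is under 0.05. Ifih1 at -1.45 and -1.15 holds the filled points.

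The rest of the interferon pathway was read from lists of 134 other genes, of which 103 were tested. In controls 4 of the 103 were higher and 24 lower in DBA, with a median log2 fold change of -0.20. In RCF libraries 9 were higher and 17 lower, with a median of -0.09. Between the comparisons 19 genes were called in both with the same sign, out of 28 in controls (16.0% of all genes passed) and 26 in RCF libraries (23.8%). Of all genes tested, 8.13% were lower in DBA in controls and 12.4% in RCF libraries, which also holds for the lists below.

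The interferons themselves were not measurable at this depth. All 11 ligands listed (Ifnb1, Ifna1, Ifna2, Ifna4, Ifna5, Ifne, Ifnk, Ifnz, Ifng, Ifnl2 and Ifnl3) were in the table, none passed the low-count filter, and none exceeded 3 counts in any library. The receptor chain Ifnar1 was higher in DBA in both comparisons, with 53.5 against 44.0 CPM in controls (log2 fold change 0.28, SE 0.04, adjusted p = 4.83e-06) and 53.5 against 43.7 CPM in RCF libraries (0.29, SE 0.04, adjusted p = 2.62e-06). The partner chain Ifnar2 differed by -0.0012 in controls (95% interval -0.16 to 0.16). Ifngr2, a chain of the type II interferon receptor, was higher in DBA controls (0.26, adjusted p = 0.0278).

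Stat2 and Irf9, factors that carry the receptor signal, did not pass in either comparison. In controls Stat2 differed by -0.04 (adjusted p = 0.798) and Irf9 by -0.03 (0.861), and the feedback inhibitor Usp18 by -0.44 (0.476). For Stat2 and Irf9 the sexes went opposite ways. Stat2 averaged 30.9 CPM in DBA and 26.9 in C57 control males, and 24.3 and 29.5 in control females. Irf9 averaged 13.2 and 10.6 CPM in males, and 10.7 and 13.9 in females. Strain differences within a sex were not tested. In RCF libraries Stat2 differed by 0.05 (adjusted p = 0.727), Irf9 by 0.07 (0.652) and Usp18 by -0.09 (0.880).

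Of 13 sensors and adaptors tested, 4 were lower in DBA controls. Among them was Myd88, the adaptor of Toll-like receptors, at 3.76 against 5.85 CPM (-0.63, adjusted p = 1.12e-05). In RCF libraries 3 were lower, among them the DNA sensor Aim2 (-1.20, adjusted p = 1.50e-05), and 1 was higher, Mavs, the adaptor on which the Ifih1 protein signals (0.33, adjusted p = 0.0343). Of 5 regulatory factors, 1 was lower in each comparison. It was Irf3, which turns on interferon genes after sensing, at -0.47 in controls (adjusted p = 2.09e-05) and -0.53 in RCF libraries (adjusted p = 2.19e-06). Of 7 negative regulators none passed in controls, and in RCF libraries Pias1, an inhibitor of interferon signalling, was higher (0.21, adjusted p = 0.0118).

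Among 66 other induced genes, 19 were lower and 2 higher in DBA controls, and 13 were lower and 5 higher in RCF libraries. Of all genes tested, 8.13% were lower and 16.0% passed in either direction in controls. In RCF libraries these shares were 12.4% and 23.8%. Slfn2, of the Schlafen family, was lower by -3.05 in controls and -2.46 in RCF libraries, and its libraries did not overlap between the strains in either. Gbp9, a guanylate-binding protein, differed by -1.81 and -1.75, Trim34a by -1.66 and -1.37, and B2m, the light chain of MHC class I, by -0.46 and -0.56. Irgm2, an immunity-related GTPase, was lower in controls (-1.18), and Ifi203, of the same family as Aim2, in RCF libraries (-2.24).

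The induced genes higher in DBA were 2 of the 66 in controls and 5 in RCF libraries. Tor3a, an ATPase of the torsin family, rose by 0.57 and 0.77, and Slfn8 by 0.98 and 1.07. In RCF libraries Cmpk2, a mitochondrial nucleotide kinase, was higher by 0.33, Xaf1 by 0.56 and Ifit1bl1, a relative of Ifit1, by 0.59.

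The second comparison asked whether cross fostering in the first days of life left a difference in the adult. No member passed in C57, where 0.00% of genes tested did. Over both sexes of C57, 5 of 9 estimates were above 0 (median 0.06), and 0 had an unadjusted p under 0.05, against 5.35% of all genes. The widest estimates were Ifit3 at 0.38 (7.31 CPM in RCF, 5.60 in controls, SE 0.21, adjusted p = 0.926), Isg15 at 0.35 (SE 0.34, adjusted p = 0.966) and Mx1 at -0.48 (SE 0.69, adjusted p = 0.986). The 95% interval of Ifih1 ran from -0.24 to 0.42 and that of Oasl2 from -0.48 to 0.35. No member passed in C57 males, where 0.0108% of genes did, or in C57 females, where 0.00542% did. An unadjusted p under 0.05 was found for 1304 and 2301 of the 18441 genes tested, and for 0 members in either sex. DESeq2 and voom likewise called no member for RCF, in either strain or in any sex of it, apart from Mx1 in DBA males with DESeq2. Tissue markers leaned in C57, with none past the threshold apart from the 1 hindbrain marker tested, higher in RCF females (5.16). C57 RCF female 4 held Hoxb5 at 30.6 CPM. Microglia markers were below 0 for 15 of 16 in males and above 0 for 16 of 16 in females (medians -0.14 and 0.31). Endothelial markers were below 0 for 14 of 14 in males and above 0 for 12 of 14 in females. Meningeal markers were below 0 for 8 of 8 in males and above 0 for 8 of 8 in females. Over both sexes, estimates were above 0 for 10 of 10 dopamine neuron markers (median 1.13) and below 0 for 5 of 6 forebrain markers (median -1.03). Below 0 were 6 of 6 forebrain markers in C57 males (median -3.04) and 5 of 6 hypothalamus markers in C57 females (median -3.89). The group medians of the mean log2 CPM of forebrain markers were 2.74 in C57 RCF males and 2.59 in control males. Among these control males the highest library stood at 7.46. Their part in the result was not tested.

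No member passed in DBA either, where 0.0325% of genes did. Here 8 of 9 estimates were above 0 (median 0.38, against -0.02 over all genes), and 4 of 9 had an unadjusted p under 0.05, against 7.36% of all genes. Cell-type lists also leaned one way in this comparison, with no marker of those named here past the threshold. Estimates were below 0 for 15 of 16 microglia markers (median -0.15, 4 with an unadjusted p under 0.05), 9 of 10 dopamine neuron markers (median -0.75) and 6 of 6 forebrain markers (median -1.74). They were above 0 for 8 of 8 meningeal markers (median 0.33). The group medians of the mean log2 CPM of forebrain markers were 2.11 in RCF and 1.89 in control males. In females they were 2.30 and 2.01. The part of these lists in the result was not tested. Ifit3 averaged 9.40 CPM in RCF and 6.13 in controls (0.61, SE 0.21, adjusted p = 0.536), and Rsad2 averaged 2.09 and 1.40 CPM (0.58, SE 0.21, adjusted p = 0.556). Ifih1 differed by 0.38 (SE 0.17, adjusted p = 0.621) and Oasl2 by 0.45 (SE 0.21, adjusted p = 0.645). Mx1 had the estimate below 0, at -1.62 (SE 0.91, adjusted p = 0.697). The median over the 9 was 0.19 without DBA RCF male 2 and 0.17 without DBA RCF female 3. In each case 8 of 9 estimates stayed above 0, and 2 of 9 were under an unadjusted p of 0.05. No fit of this comparison left out both libraries.

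Values by library are given here for Ifit3, Rsad2 and Oasl2 in DBA. Ifit3 stood at 6.38, 16.1, 7.90, 7.72 and 5.61 CPM in DBA RCF males and at 6.09, 5.99, 6.74, 4.49 and 8.65 in DBA control males. In DBA RCF females it stood at 9.01, 8.30, 18.3, 7.25 and 7.47 CPM, and in DBA control females at 7.65, 3.71, 3.20, 8.91 and 5.86. In each sex 1 RCF library was far above the others, and the remaining RCF libraries overlapped the controls. Without DBA RCF male 2 the difference in Ifit3 was 0.44 (adjusted p = 0.684), and without DBA RCF female 3 it was 0.45 (adjusted p = 0.627).

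Rsad2 stood at 2.21, 2.47, 1.71, 1.75 and 1.34 CPM in DBA RCF males and at 1.52, 1.23, 1.03, 0.758 and 1.65 in DBA control males. In DBA RCF females it stood at 2.05, 1.53, 4.38, 1.59 and 1.85 CPM, and in DBA control females at 1.10, 1.15, 1.51, 2.34 and 1.66. Rsad2 overlapped between arms in both sexes, and its female RCF values other than library 3 were within the range of the controls. Oasl2 stood at 3.85, 12.8, 5.10, 3.54 and 4.03 CPM in DBA RCF males and between 2.71 and 4.71 in DBA control males other than the first, which was lower. Its difference over both sexes was 0.19 without DBA RCF male 2.

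The difference between the strains in their response to RCF was tested directly, and no member passed, beside 0.0108% of all genes, and 0 had an unadjusted p under 0.05. The interaction estimates ran from -1.13 (SE 1.08) for Mx1 to 0.52 (SE 0.29) for Rsad2. For Ifih1 the interaction was 0.30 (95% interval -0.18 to 0.77) and for Ifit3 0.23 (-0.36 to 0.82). Of the 103 other interferon genes none passed for RCF in C57, in DBA or in the interaction, with 5, 9 and 6 at an unadjusted p under 0.05. In DBA, RCF differed from control by 0.15 for Stat2, 0.19 for Irf9 and 0.86 (SE 0.37, adjusted p = 0.610) for Usp18.

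**Figure D3:**
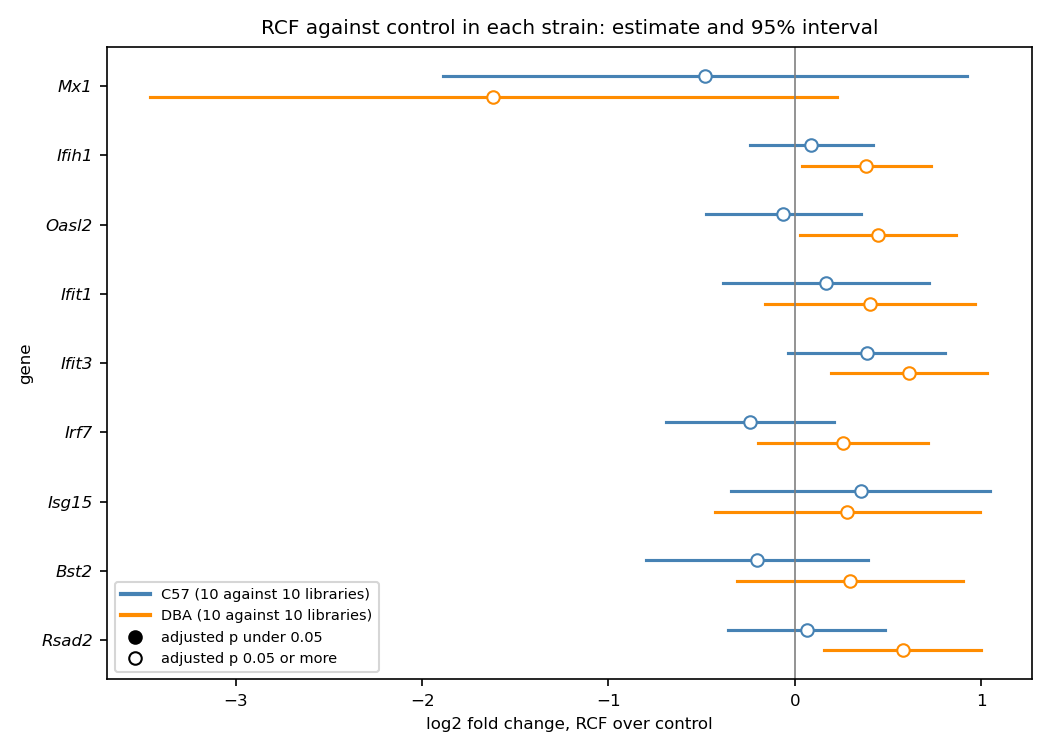
Log2 fold change of RCF over control (x axis) for the 9 genes (y axis) in C57 (blue) and DBA (orange), 10 against 10 libraries each, with 95% intervals as lines and open points where the adjusted p is 0.05 or more. All points are open, and in DBA 8 of 9 lie above 0.

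By sex in DBA, no member passed in males or in females, where 0.0163% of all genes passed in each. An unadjusted p under 0.05 was found for 4 members in males and 3 in females. Of the 18441 genes tested, 1239 in males and 2261 in females were under it. In males 7 of 9 estimates were above 0 (median 0.45). Ifih1 averaged 2.71 CPM in RCF and 1.64 in control males (0.72, SE 0.24, adjusted p = 0.630). Irf7 was below 0 in DBA males, at -0.28 (SE 0.32). In females 9 of 9 estimates were above 0 (median 0.19), led after Mx1 by Irf7 at 0.80 (SE 0.32, adjusted p = 0.317) and Ifit3 at 0.78 (SE 0.29, adjusted p = 0.289). Without DBA RCF female 3, 4 of 9 were above 0 (median -0.08): Ifih1, Oasl2, Ifit1, Isg15 and Bst2 turned below 0, Irf7 stood at 0.44 and Ifit3 at 0.45. Dopamine neuron markers were below 0 for 10 of 10 in DBA males (median -3.03) and above 0 for 10 of 10 in DBA females (median 1.46). Single libraries were far above their groups, with Th at 1603 CPM in DBA control male 3 and 954 CPM in DBA RCF female 5. The group medians of the mean log2 CPM of these markers were 4.06 in RCF and 3.38 in control males. In females they were 4.80 and 4.77. Forebrain markers were below 0 for 6 of 6 in DBA females (median -3.64). Their mean log2 CPM had a median of 2.30 in RCF females and 2.01 in control females. The highest control female stood at 7.60. The part of these lists was not tested.

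Mx1 in DBA males was the member with the largest fitted difference between RCF and control. The RCF males held 0, 1, 0, 0 and 0 counts of Mx1 and the control males 3, 4, 13, 47 and 1. In CPM these were at most 0.0392 in RCF and 0.117, 0.182, 0.558, 2.54 and 0.0424 in controls. The arms did not overlap in CPM, as for 0.325% of all genes in that direction. In counts they met, as RCF male 2 and control male 5 each held 1, and only depth set these libraries apart. The summed counts, scaled by depth, were 71.3-fold higher in controls (95% interval 12.4 to 2858, counting error only), and 26.3-fold higher (4.23 to 1089) without control male 4, which stood apart in depth and held 47 of the 68 counts. The fitted difference was -5.63 (SE 1.35, adjusted p = 0.271, edgeR) and DESeq2 gave -5.90 (adjusted p = 0.0266). Setting aside fits that dropped a single library, the adjusted p of Mx1 ran from 0.0266 to 0.974. Without control male 4, edgeR gave -4.07 (adjusted p = 1).

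In DBA females the estimate for Mx1 went the other way. RCF females held 2, 4, 32, 15 and 1 counts and control females 3, 0, 2, 2 and 2, which overlapped (2.39, SE 1.04, adjusted p = 0.351). Without RCF female 3 the estimate was 1.37 (adjusted p = 0.649).

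Sex among controls was compared as background, and no member passed in edgeR, DESeq2 or voom, beside 0.0922% of all genes in edgeR. An unadjusted p under 0.05 was found for 1907 of the 18441 genes tested and for 2 members. Ifih1 was 4.32 CPM in females and 3.77 in males (0.38, SE 0.17, adjusted p = 0.425), and Mx1 was 0.169 and 0.463 CPM (-1.47, SE 0.70, adjusted p = 0.466).

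Single libraries carried much of the spread. DBA RCF female 3 was the highest of its group for 9 of 9 genes, with a median ratio of 2.34 to the other 4 libraries over the members other than Mx1. Its Ifit1 was 6.01 CPM against at most 1.93 in the other 4, and its Isg15 2.33 against at most 1.18. DBA RCF male 2 was the highest of its group for 9 of 9 genes, Mx1 by a single count. Its Oasl2 was 12.8 CPM against at most 5.10 in the other 4, and its Isg15 1.73 against at most 1.09.

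The cell-type markers of these libraries were read beside them. In DBA RCF female 3 the mean log2 CPM of the microglia list was 3.36 (3.30 to 3.74 in the other 4), and that of the endothelial list 4.74 (4.37 to 4.91). Its lists of meninges (2.59, others 2.97 to 3.71), choroid plexus (-1.23, others -0.83 to -0.28), astrocytes (7.64, others 7.68 to 8.55) and leukocytes (-3.18, others -3.11 to -2.65) stood below those of the other 4 libraries. In DBA RCF male 2 they were 3.25 (3.24 to 3.66) and 4.81 (4.56 to 4.90). Its choroid plexus list stood at 0.96, above the others at -1.14 to 0.04, and its leukocyte list at -3.03, above -3.15 to -3.08, while its meningeal list (2.58) was below the others at 2.69 to 3.66. The part of these lists in the result was not tested.

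DBA control male 4 differed in another way. It held 0 counts of Isg15 and 2 of Ifit1, and had the lowest Ifih1 (0.866 CPM), Bst2 (0.325 CPM), Ifit3 (4.49 CPM) and Rsad2 (0.758 CPM) of its group. In that library Oasl2 (4.71 CPM) and Irf7 (3.03 CPM) were the highest of the group, like Mx1 (2.54 CPM). Its microglia list stood at 2.90 (3.41 to 3.72 in the other 4) and its endothelial list at 4.52 (4.59 to 5.03), both below the rest of the group. Also below were its lists of meninges (1.18, others 2.01 to 3.19), border macrophages (-2.07, others -0.92 to 0.16) and astrocytes (7.58, others 7.62 to 8.13). Its leukocyte list (-2.32, others -3.17 to -2.87) and choroid plexus list (0.79, others -1.19 to -0.83) were above the rest. The part of these lists in its values was not tested.

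**Figure D4:**
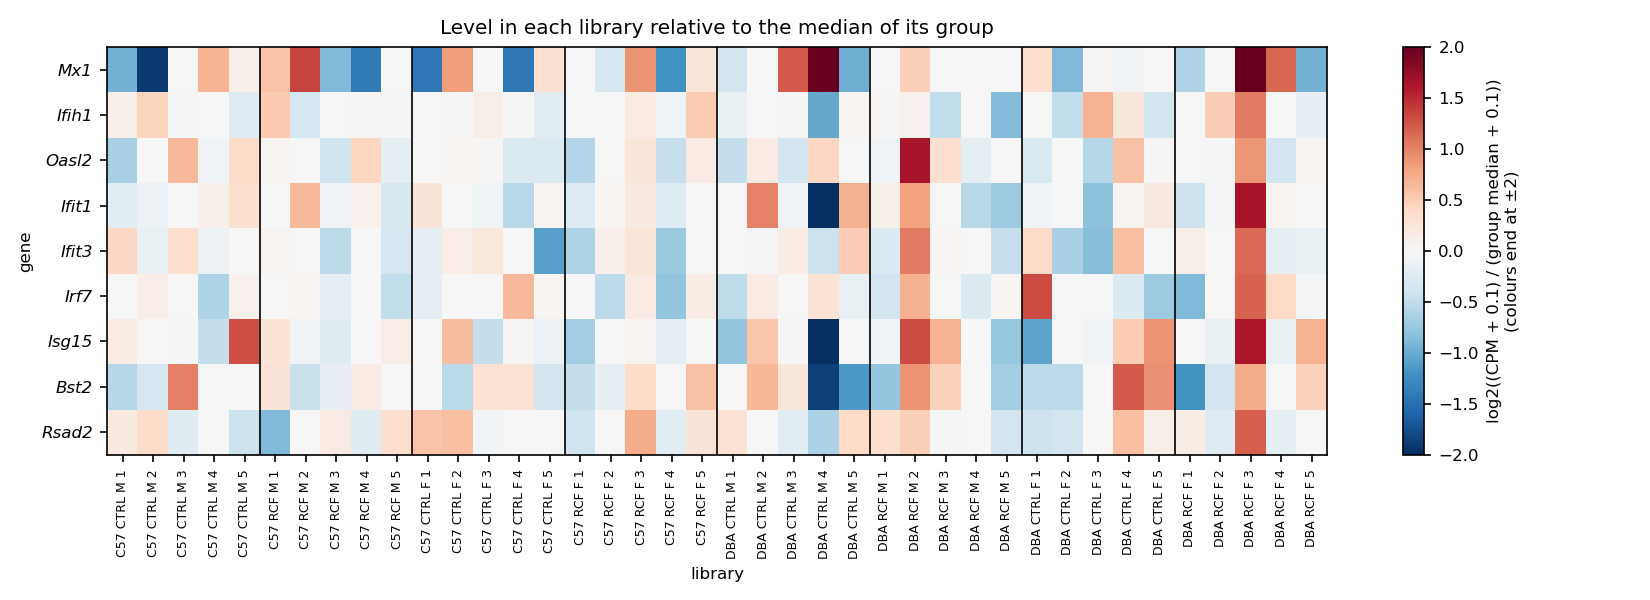
Each library's level relative to the median of its group, as log2 of (CPM + 0.1) over (group median + 0.1), with the 9 genes as rows and the 40 libraries as columns, red above and blue below the median, and vertical lines between groups. The column of DBA RCF female 3 is red for 9 of 9 genes, and DBA control male 4 mixes high Mx1 with low Ifit1 and Isg15.

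Some members varied together across libraries of a group. Of 36 pairs, 11 were correlated after removing group means (40 libraries, Pearson, permutation within groups, adjusted over 36 pairs), each positively, and 12 passed by Spearman. The strongest was Ifit1 with Isg15 (r = 0.81, permutation p = 0.00025, adjusted p = 0.00711; Spearman rho = 0.59, permutation p = 0.00100, adjusted p = 0.0198). Isg15 with Bst2 had r = 0.65 (rho = 0.58) and Oasl2 with Ifit3 had r = 0.61 (rho = 0.53), each at an adjusted p of 0.00711. None of the 8 pairs with Mx1 passed (r from -0.18 to 0.36), and among the other 28 pairs r ran from 0.00096 to 0.81. Without the 2 libraries farthest from the median of the first gene of a pair, and with group means taken anew, r was 0.51 for Ifit1 with Isg15, 0.51 for Isg15 with Bst2 and 0.39 for Oasl2 with Ifit3. None of the 36 pairs passed without those libraries, which differed between pairs. Leaving out the most extreme values of a gene also narrows its range. Whether the calls rest on those libraries cannot be told apart from that narrowing. Without the 5 libraries that stood apart, 13 pairs passed.

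The genes whose pattern over the 40 libraries was most like the mean of the members were Gbp3 (r = 0.67), Gm45846 (0.63), Gbp7 (0.62), Wwtr1 (0.60), Ddx60 (0.59), Osgin1 (0.58), Gdf5 (0.58), Tmem241 (0.57), Parp14 (0.57) and Gm26512 (0.56), after removing group means. Without DBA RCF male 2 and DBA RCF female 3, left out after seeing the data, r was 0.35 for Gm26512, 0.46 for Parp14, 0.48 for Osgin1 and 0.52 to 0.68 for the other 7. Of these 10, Gbp3, Gbp7, Ddx60 and Parp14 were on the list of other interferon-induced genes. Over 18432 tested genes other than the members, the median r was 0.01 and the 99th percentile 0.43. These are descriptions over libraries that share the tissue variation.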

How the data were processed

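Messenger RNA of VTA punches was sequenced as single reads of 75 nt. The authors deposited raw read counts, whole numbers for each gene. The submitters' processing notes name FastQC, cutadapt 1.11, bcl2fastq 2.20 and the GRCm38 (mm10) build. The aligner, the counter and its strand setting were not given in the sources used here.

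All 40 libraries entered 1 edgeR 4.0.16 model (R 4.3.3) with a mean per group, TMM factors, filterByExpr (18441 genes) and the robust quasi-likelihood F test with 32 residual degrees of freedom. Adjusted p-values come from edgeR where no tool is given, with Benjamini-Hochberg adjustment over all tested genes of a comparison and a threshold of 0.05. Comparisons over both sexes are the mean of the male and female differences. Log2 CPM used a prior count of 2. DESeq2 1.42.0, voom (limma 3.58.1), DESeq2 size factors, no filter, the compared libraries only, a replicate block, marker covariates and 1 library left out were alternatives. The members, lists and tests were chosen with earlier results of these data known. Named by rule were the members, the ligands, Ifnar1, Ifnar2, Stat2, Irf9, Usp18, up to 8 called interferon genes in each direction of a comparison, and the 10 genes most like the members, apart from results that are not reported here. Correlations used 100000 permutations within groups. The test and the correlation were checked on simulated data. In each of 80 pairs of libraries of a group, counts differed by more than sampling noise. Transcripts were compared with blastn 2.17.0.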

Additional observations from a re-analysis of the deposited data

Results flagged for a closer look

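Of 72 sets of 5 libraries (9 genes in 8 groups), 14 held a library far from the other 4 by Dixon's ratio of gap to range. The cut was 0.71, its 95% level for normal values. Low counts in CPM are not normal, and the same libraries recur across genes, so the 14 cannot be set against a chance rate. DBA RCF female 3 was far above its group for Ifit3 (18.3 CPM), Oasl2 (8.30 CPM), Ifit1 (6.01 CPM) and Rsad2 (4.38 CPM). DBA RCF male 2 was far above its group for Ifit3 (16.1 CPM) and Oasl2 (12.8 CPM), and for Mx1 by 1 count (0.0392 CPM, the other 4 at 0). DBA control male 4 was far above the others for Mx1 (2.54 CPM) and far below them for Ifih1 (0.866 CPM).

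The other 5 were in control libraries, and 3 of them concerned Irf7. Irf7 was low in C57 control male 4 (2.04 CPM, the others at least 3.15), high in C57 control female 4 (4.41 CPM, the others 2.42 to 2.85) and high in DBA control female 1 (3.40 CPM, the others 0.764 to 1.33). Isg15 was high in C57 control male 5 (1.83 CPM), the library with DBA-type RNA, and Bst2 in C57 control male 3 (5.73 CPM, the others 1.84 to 2.81).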

How the results depend on the processing

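Ifih1 stayed past the threshold between strains under every alternative run, with log2 fold changes of -1.52 to -1.26 in controls and -1.19 to -0.93 in RCF libraries, and of -1.56 to -1.38 and -1.28 to -1.08 with 1 library left out. In controls 4 members passed with voom and 3 with DESeq2, and 1 to 3 with 1 library left out; among RCF libraries 1 to 2 passed with 1 library left out. For RCF in DBA males 1 member (Mx1) passed with DESeq2. Of 711 single-gene values under the other alternatives 18 changed sign, and of 1620 with 1 library left out 63 did; the cause was not tested. Counts of genes called between strains fell to 1293 in controls and 1276 in RCF libraries with the marker covariates, from 2953 and 4381. For RCF, DESeq2 called 79 genes in C57 females, 20 in DBA males, 47 in DBA females and 18 in DBA, where edgeR called 1, 3, 3 and 6, and edgeR without the 5 libraries that stood apart called 133 in DBA females.

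Between libraries of the same replicate number in different groups, deviations from group means had correlations of -0.27 to 0.24. Libraries of different numbers were not compared, so these values cannot tell whether a number marks a shared litter or batch. With a replicate block, Oasl2 between strains in RCF libraries was -0.0077 and Mx1 for RCF in C57 males 0.19, and no count of called members changed. With marker covariates, strain values were 0.052 for Bst2 in controls, and -0.25 for Oasl2 and 0.55 for Bst2 in RCF libraries. Under them RCF values were 0.061 for Oasl2 in C57, 0.0084 for Oasl2 in C57 males and -0.075 for Bst2 in C57 females, and the interaction of Isg15 was 0.0069. With voom, Oasl2 between strains in RCF libraries was -0.067, the interaction of Isg15 0.041, Ifit1 for RCF in DBA females -0.0094 and Ifit3 between sexes -0.017. Without the 5 libraries that stood apart, a choice made after seeing the data, Oasl2 between strains in RCF libraries was -0.015, the interaction of Ifit1 -0.017, Ifih1 for RCF in C57 males -0.065, Irf7 in C57 females 0.085 and Bst2 between sexes -0.14.

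With 1 library left out, strain values ran from -0.90 to 0.15 for Mx1 in controls and from -0.23 to 0.088 for Oasl2 in RCF libraries. For RCF in C57 they ran from -0.14 to 0.018 (Oasl2) and -0.046 to 0.14 (Rsad2), and for the interaction from -0.050 to 0.39 (Ifit1) and -0.31 to 0.10 (Isg15). In C57 males they ran from -0.87 to 0.35 (Mx1), -0.13 to 0.14 (Ifih1), -0.041 to 0.23 (Ifit1) and -0.056 to 0.23 (Rsad2). In C57 females they ran from -0.051 to 0.15 (Oasl2), -0.13 to 0.13 (Irf7) and -0.17 to 0.16 (Rsad2). In DBA females they ran from -0.20 to 0.27 (Ifih1), -0.12 to 0.33 (Oasl2), -0.39 to 0.35 (Ifit1), -0.34 to 0.42 (Isg15) and -0.084 to 0.48 (Bst2). Between sexes they ran from -0.067 to 0.12 (Ifit3) and -0.12 to 0.21 (Bst2). Of the 36 correlations 0 passed without the 2 libraries farthest from the median, and 13 without the 5 that stood apart. Counts of at most 14 (C57) and 47 (DBA) limit Mx1 in any library.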
